A study of Homo sapiens with 23 samples.

Results

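The abundant small structural RNAs described here are the products of 8 genes, RN7SL1, RN7SL2, RN7SK, RMRP, RPPH1, TERC, SNORD3A and SCARNA2. They were chosen by name and matched to Ensembl identifiers with the version removed. All 8 were found among the 57875 genes listed for each sample, and all 8 passed the filter on low counts that left 22842 genes to be tested. RNA came from HCT116, a human colorectal carcinoma line, and from CRISPR-edited derivatives in which 1 or more Argonaute genes were knocked out, named AGO1-/-, AGO2-/-, AGO1/2-/- and, with AGO1, AGO2 and AGO3 edited, AGO1/2/3-/-. All grew in McCoy's 5a medium with fetal bovine serum and were taken at passages 12 to 18. Each of the 5 lines gave 3 replicates, 15 samples in all, and the question asked here is which of the 8 RNAs differ from wild type. Values listed for all edited lines follow the order just given, called line order below. Gene-level counts were estimated by the authors and not scaled for depth. Total counts per sample ran from 27709609 to 45270815, with a median of 30701453. Levels are given as CPM, counts scaled to library size, after normalization by edgeR's TMM method, and a gene counts as called, in either direction, at an adjusted p of 0.05 or less in edgeR's quasi-likelihood test over all 22842 genes.

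Some limits hold for every comparison. Each genotype is a single cell line, so genotype and line cannot be told apart. The labels name Trizol for taking the RNA, and the published methods name a column kit. The headers of the AGO2-/- samples name another mode of quantification than those of the other lines, and mode and genotype cannot be told apart. All knockout lines were compared with the same wild-type samples, so the comparisons share any departure of those samples. The libraries were made from total RNA after removal of ribosomal RNA, and no value here measures how much of a short RNA such a library recovers.

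These RNAs work as parts of RNA-protein particles rather than as messages. The 7SL RNA from RN7SL1 and RN7SL2 is the scaffold of the signal recognition particle, which brings ribosomes that make secreted and membrane proteins to the endoplasmic reticulum, and RN7SK holds the elongation kinase P-TEFb in an inactive particle. RMRP and RPPH1 are the RNAs of RNase MRP, which cuts precursor ribosomal RNA, and of RNase P, which trims precursor tRNAs, SNORD3A encodes the U3 RNA needed to process precursor ribosomal RNA, SCARNA2 guides modification of a spliceosomal RNA in Cajal bodies, and TERC carries the template of telomerase, with which carcinoma cells keep their telomeres.

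The genes lie at separate places, and their positions below are those of RefSeq on GRCh38 (hg38). RN7SL1 (chr14:49586580-49586878, plus strand) and RN7SL2 (chr14:49862551-49862849, minus strand) each have 299 bases. RN7SK (chr6:52995620-52995951, plus strand) has 332 bases, RMRP (chr9:35657750-35658019, minus strand) has 270 and RPPH1 (chr14:20343071-20343411, minus strand) has 341. TERC (chr3:169764610-169765060, minus strand) has 451 bases, SNORD3A (chr17:19188016-19188232, plus strand) has 217 and SCARNA2 (chr1:109100193-109100612, plus strand) has 420. RNA polymerase III transcribes RN7SL1, RN7SL2, RN7SK, RMRP and RPPH1, and RNA polymerase II transcribes TERC, SNORD3A and SCARNA2. A run of T bases at the end of a gene is where RNA polymerase III stops, so the ends of the genes are shown to compare the members by polymerase. Each line holds the last 10 bases of the RefSeq gene and the 20 bases after it, 5′ to 3′ on the RNA's strand, with runs of at least 4 T bases in capitals.
RN7SL1 (chr14:49586869-49586898): ccccgtctcTTTTgaacaataaatacgtta
RN7SL2 (chr14:49862531-49862560): ccccgtctcTTTTgcccccctccctcatta
RN7SK (chr6:52995942-52995971): cctttcTTTTgacccattacccatctaagt
RMRP (chr9:35657730-35657759): cgcggctgTTTTTTgttcccgagaccacgg
RPPH1 (chr14:20343051-20343080): tccgcccaTTTTTggaaaaaaaaaaaaaaa
TERC (chr3:169764590-169764619): tcacacatgcagttcgctttcctgttggtg
SNORD3A (chr17:19188223-19188252): tctgagtggTTTTTccttcttgatggctca
SCARNA2 (chr1:109100603-109100632): tctgatctgggcacggccaccgggctgcgg

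The motif searched was TTTT on the RNA's strand, and 11263 of 39804 RefSeq genes, 28.3%, hold it in a window of the same 30 bases. All 5 members made by RNA polymerase III hold it. SNORD3A also holds it, and TERC and SCARNA2 do not. A match is a description of the letters and shows no stop of transcription in these cells.

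Near-identical copies bear on how reads are shared between members. RN7SL1 and RN7SL2 differ at 4 of 299 bases, an identity of 98.7%, and their longest identical run is 205 bases. Only reads that cover a differing base tell both genes apart.

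SNORD3A differs from SNORD3C at a single base of 217, G108A, and from both SNORD3B-1 and SNORD3B-2 at A78C, counted from 1 at the first base of the RNA with the base of SNORD3A first. How the estimated counts split between such copies is uncertain, and sums over the copies are given beside the single genes.

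The targeted genes were read first. AGO1 had 138, 108 and 146 CPM in wild-type replicates 1 to 3, 34.4, 32.2 and 39.5 in AGO1-/- cells, 160.5, 158 and 161 in AGO2-/- cells, 35.5, 37.8 and 36.6 in AGO1/2-/- cells and 35.5, 33.1 and 28.7 in AGO1/2/3-/- cells. Every sample with AGO1 knocked out lay below every other sample, with log2 fold changes of -1.89, -1.84 and -2.01 in AGO1-/-, AGO1/2-/- and AGO1/2/3-/- cells. AGO2 had 379, 459 and 382 CPM in wild-type cells, 334, 364 and 350.4 in AGO1-/- cells, 262, 314 and 283 in AGO2-/- cells, 321, 332 and 365 in AGO1/2-/- cells and 518, 557 and 538 in AGO1/2/3-/- cells. The log2 fold change of AGO2 RNA was -0.51 in AGO2-/- cells (adjusted p = 0.00518) and 0.40 in AGO1/2/3-/- cells (adjusted p = 0.00477), so the RNA level does not mark the loss of AGO2 in these lines. AGO3 had 100.03, 130.4 and 107 CPM in wild-type cells, 89.4, 78.7 and 99.9 in AGO1-/- cells, 106, 109 and 109.5 in AGO2-/- cells, 103, 114 and 119.5 in AGO1/2-/- cells and 51.8, 57.4 and 46.1 in AGO1/2/3-/- cells. It was called only in the last line, where all samples lay below the rest, with a log2 fold change of -1.12 (adjusted p = 3.41e-06). AGO4, which was not edited, was higher there by a log2 fold change of 1.29 (adjusted p = 0.000346) and lower in AGO2-/- cells at -0.70 (adjusted p = 0.0457).

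The cells were checked against markers of colon carcinoma epithelium. KRT8, the most abundant of 7 such genes, had 14397 to 38024 counts per sample, and KRT18, KRT19 and EPCAM each had over 1000 counts in every sample. VIL1 had 1 to 10 counts and CEACAM5 18 to 56, so these markers were close to absent in all lines. CDH1 (-3.51) and EPCAM (-1.74) were called lower and KRT8 (0.41) higher in AGO1/2/3-/- cells, with a list median of 0.12. EPCAM was also called lower in AGO1-/- (-0.33) and AGO1/2-/- cells (-0.92) and higher in AGO2-/- cells (0.32), and CDH1 was called lower in AGO1-/- (-1.15) and AGO1/2-/- cells (-1.66). KRT8 (0.76) and KRT19 (0.64) were called higher in AGO1/2-/- cells, where the list median was 0.36, and KRT18 (-0.41) was called lower in AGO2-/- cells. Summed over the 7 genes, the level in CPM of total counts, without TMM, was 1860 to 1965 in wild-type samples and, in line order, 1354 to 1414, 1586 to 1769, 2063 to 2683 and 1575 to 2007. Of 6 markers of other cell types, COL1A1 was the most abundant at 260 to 1045 counts, while ALB had 0 to 9 and CDH5 1 to 6. Summed, the 6 genes had 25.5 to 35.4 CPM in wild-type samples and, in line order, 16.2 to 20.6, 13.1 to 15.2, 14.5 to 18.3 and 27.8 to 30.3, so the first 3 lines lay below wild type. COL1A1 was the only one called, lower in AGO1-/- (-0.96), AGO2-/- (-1.17) and AGO1/2-/- cells (-1.03), and the part of these marker changes in the members' changes was not tested.

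Of the 8 structural RNAs, 4 were called higher in AGO1-/- cells, where 3.17% of all genes tested were called higher. In AGO2-/- cells 3 were called higher and 1 lower, beside 8.55% and 10.8% of all genes. In AGO1/2-/- cells 5 were called higher, beside 8.37% of all genes. In AGO1/2/3-/- cells 3 were called higher and 2 lower, beside 20.3% and 19.8% of all genes. By edgeR's test 0 fell below wild type with a call in AGO1-/- and AGO1/2-/- cells, beside 5.5% and 8.35% of all genes. At an unadjusted p under 0.05 those counts were 0 and 1, and by DESeq2's Wald test both were 0. The median log2 fold change of the 8 RNAs was 0.52, 0.33, 0.44 and 0.10 for the edited lines in line order, and that of all genes tested was -0.01, -0.02, 0.01 and -0.01. Scaled to the other short non-coding RNAs, the median of the 8 RNAs was -0.52, 0.25, -0.31 and -0.25, below 0 in the AGO1, AGO1/2 and AGO1/2/3 lines. That scaling shifts all genes of a sample alike, and the median of all genes was then -1.03, -0.11, -0.74 and -0.36, below that of the 8 RNAs in each line. With total counts alone the median of the 8 RNAs was -0.04 in the AGO1/2/3 line, and that of all genes was -0.10, -0.14, -0.08 and -0.15 in line order. A 2-fold threshold left only SNORD3A, higher in each line, and RMRP, lower in AGO2-/- cells. In bulk RNA, less RNA per cell and fewer cells that make it cannot be told apart.

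**Figure D1:**
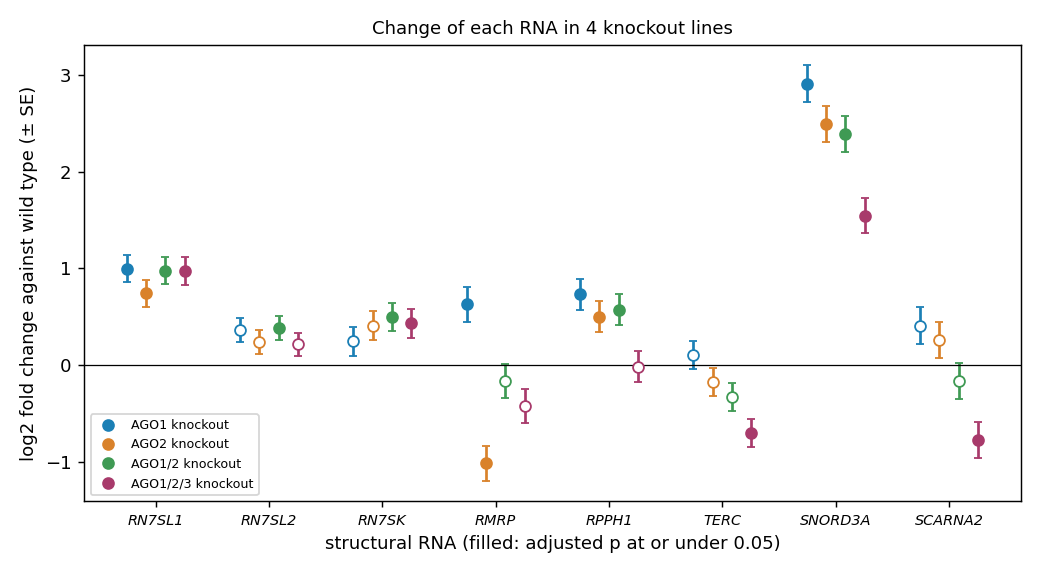
The log2 fold change of each structural RNA against wild type (vertical axis, bars show the standard error) in the 4 knockout lines, with filled points for adjusted p at or under 0.05. SNORD3A stands highest at 1.54 to 2.91, RN7SL1 lies at 0.74 to 0.996, and RMRP falls on both sides of 0, while scaling to the other short RNAs turns every RNA but SNORD3A in the AGO1 line, RN7SL2, RN7SK and RPPH1 in the AGO1/2 line and RN7SL2 in the AGO1/2/3 line from above to below 0.

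RN7SL1 (ENSG00000276168) had 10459, 12319 and 13470 CPM in wild-type replicates 1, 2 and 3. It had 20765, 24347 and 27197 CPM in AGO1-/- cells and 21635, 18597 and 20474 in AGO2-/- cells. In AGO1/2-/- cells it had 19906, 24284 and 27133 CPM, and in AGO1/2/3-/- cells 26093, 22711 and 22317. Every knockout sample lay above every wild-type sample. The log2 fold change was 0.996 in AGO1 (standard error 0.14, adjusted p = 0.00049), 0.74 in AGO2 (0.14, 0.00359), 0.98 in AGO1/2 (0.14, 0.00022) and 0.97 in AGO1/2/3-/- cells (0.14, 5.21e-05), but -0.03 in the AGO1 line (adjusted p = 0.816) and 0.22 in the AGO1/2 line (adjusted p = 0.122) when scaled to the other short RNAs. In the order of mean levels, wild type came lowest, then AGO2, AGO1/2/3, AGO1/2 and AGO1-/- cells, and only the step from wild type to AGO2-/- cells was called, with adjusted p of 0.212, 0.99 and 0.948 for the later steps.

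RN7SL2 (ENSG00000274012), the other source of 7SL RNA, had 14752, 17592 and 19299 CPM in wild-type replicates 1, 2 and 3. It had 19330, 22928 and 23975 CPM in AGO1-/- cells and 20583, 19289 and 21099 in AGO2-/- cells. Levels in AGO1/2-/- cells were 19835, 22623 and 24810 CPM, and in AGO1/2/3-/- cells 21119, 19466 and 19261. The AGO1 and AGO1/2-/- samples lay above all wild-type samples, while the AGO2 and AGO1/2/3-/- samples overlapped wild-type replicate 3. The log2 fold change of 0.38 in AGO1/2-/- cells was called (standard error 0.12, adjusted p = 0.0438), with the reverse direction, -0.37, when scaled to the other short RNAs. Changes of 0.36 in AGO1 (adjusted p = 0.0857), 0.24 in AGO2 (adjusted p = 0.173) and 0.21 in AGO1/2/3-/- cells (adjusted p = 0.185) were not called, and scaled to the other short RNAs they were -0.66 (adjusted p = 0.000115), 0.16 and -0.12. The call in AGO1/2-/- cells was lost on leaving out 1 of 11 samples, namely wild-type replicates 1 and 2, AGO1-/- replicate 2, any AGO2-/- or AGO1/2/3-/- replicate and AGO1/2-/- replicates 2 and 3, with log2 fold changes of 0.27 to 0.38 and adjusted p of 0.0543 to 0.182. It was also lost with DESeq2's size factors (adjusted p = 0.0512), total counts (0.0682), TMM over protein-coding genes (0.0608), at least 10 counts in every sample (0.092), a fit of 6 samples (0.202), those of the pair of lines compared, and no AGO2-/- samples (0.0741). Without wild-type replicate 3, the change in AGO1-/- cells was called at 0.45 (adjusted p = 0.0466), and DESeq2's Wald test called it too (adjusted p = 0.0312). No step in the order wild type, AGO1/2/3, AGO2, AGO1 and AGO1/2-/- cells was called.

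The balance of both 7SL genes shifted within each library. The ratio of RN7SL1 to RN7SL2 counts was 0.709, 0.700 and 0.698 in wild-type replicates 1 to 3 and 1.07, 1.06 and 1.13 in AGO1-/- cells. AGO2-/- cells had 1.05, 0.964 and 0.970, AGO1/2-/- cells had 1.004, 1.07 and 1.09, and the ratio was highest at 1.24, 1.17 and 1.16 in AGO1/2/3-/- cells. All 12 knockout samples lay above the wild-type samples, which lay close together. The mean log2 ratio differed from wild type by 0.63, 0.50, 0.59 and 0.76 in line order. With 3 samples against 3, a two-sided exact permutation test cannot give a p under 0.1, and it gave 0.1 for each line. This ratio needs no scaling between libraries but rests on the split of reads at the 4 bases that differ. It was computed after the values of both genes had been seen.

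Summed before the fit, RN7SL1 and RN7SL2 rose from 25211 to 32770 CPM in wild-type samples to 37886 to 51943 CPM in the knockout samples. For the sum, the log2 fold change was 0.66 in AGO1 (adjusted p = 0.00595), 0.47 in AGO2 (adjusted p = 0.0248), 0.66 in AGO1/2 (adjusted p = 0.0029) and 0.58 in AGO1/2/3-/- cells (adjusted p = 0.00257). These values of the sum are those with TMM. Scaled to the other short RNAs, both genes lay below 0 in the AGO1 line (RN7SL1 -0.03, RN7SL2 -0.66). In the other lines RN7SL1 stayed above 0, and RN7SL2 was at 0.16 in AGO2, -0.37 in AGO1/2 and -0.12 in AGO1/2/3-/- cells. RN7SL1 and RN7SL2 held 97.5% to 99.4% of the counts of the 662 RN7SL entries listed. RN7SL3, another copy that differs from RN7SL1 at 7 of 299 bases, had 447, 504 and 667 CPM in wild-type cells and 82.9, 86.8 and 90.3 in AGO1/2/3-/- cells. It was called lower only there, with a log2 fold change of -2.64 (adjusted p = 3.13e-08) opposite to that of RN7SL1, beside uncalled changes of -0.22, -0.37 and -0.32 in the other lines, and adding it to the sum gave 0.55 in that line.

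**Figure D2:**
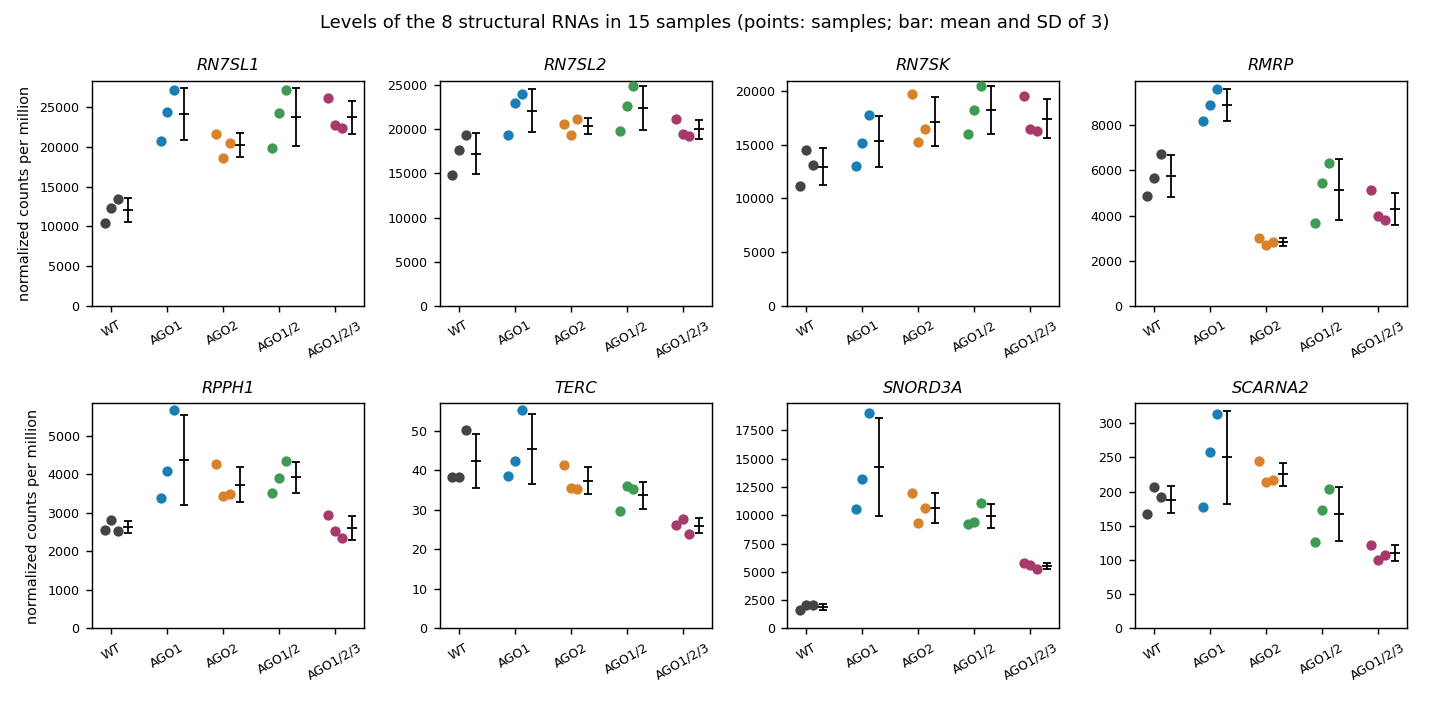
Normalized CPM (vertical axes, starting at 0) of each structural RNA in wild type and the 4 knockout lines, with a point per sample and a bar for the mean and SD of 3. SNORD3A shows no overlap between wild type, at 1608 to 2038, and any knockout line, while TERC and SCARNA2 are lowest in AGO1/2/3-/- cells.

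RN7SK (ENSG00000283293) had 11121, 14537 and 13127 CPM in wild-type replicates 1, 2 and 3. It had 13043, 15167 and 17751 CPM in AGO1-/- cells and 19685, 15284 and 16455 in AGO2-/- cells. In AGO1/2-/- cells it had 15959, 18222 and 20442 CPM, and in AGO1/2/3-/- cells 19498, 16479 and 16308. The AGO1-/- samples overlapped wild type, and those of the other lines lay above it. Against wild type, the log2 fold change was 0.49 in AGO1/2 (adjusted p = 0.0308) and 0.43 in AGO1/2/3-/- cells (adjusted p = 0.0287), both called, with the reverse direction, -0.26, in the AGO1/2 line when scaled to the other short RNAs. It was 0.24 in AGO1 (adjusted p = 0.352) and 0.41 in AGO2-/- cells (adjusted p = 0.0632), neither of them called, but -0.79 in the AGO1 line (adjusted p = 4.54e-05) when scaled to the other short RNAs. The AGO1/2 call was lost without wild-type replicate 1 or 3 or AGO1/2-/- replicate 2 or 3, at 0.39 to 0.49 (adjusted p 0.061 to 0.131), and with total counts (0.0545), at least 10 counts in every sample (0.0587) and a fit of 6 samples (0.106). The AGO1/2/3 call was lost without wild-type replicate 1 or 3 or AGO1/2/3-/- replicate 1 or 3, at 0.31 to 0.43 (adjusted p 0.0553 to 0.144). It was also lost with total counts (0.29, adjusted p = 0.104), TMM over protein-coding genes (adjusted p = 0.0797), at least 10 counts in every sample (0.08), a fit of 6 samples (0.0751) and scaling to the other short RNAs (0.67). Conversely, the AGO2 change was called without AGO1-/- replicate 1 or 3 or AGO1/2-/- replicate 3, at 0.41 to 0.43 (adjusted p 0.0363 to 0.0482), with DESeq2's size factors (0.0486), by DESeq2's Wald test (0.0236) and with no filter (0.0185). Levels rose in the order wild type, AGO1, AGO2, AGO1/2/3 and AGO1/2-/- cells, and no step of this order was called. The RN7SK gene held 99.3% to 99.6% of the counts of the 292 RN7SK entries listed.

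RMRP (ENSG00000277027) had 4883, 5661 and 6737 CPM in wild-type replicates 1, 2 and 3. It had 8185, 8879 and 9604 CPM in AGO1-/- cells and 3026, 2688 and 2824 in AGO2-/- cells. Levels in AGO1/2-/- cells were 3671, 5459 and 6322 CPM, and in AGO1/2/3-/- cells 5121, 3982 and 3787. The AGO1-/- samples lay above all wild-type samples and the AGO2-/- samples below them, while the other lines overlapped wild type. The log2 fold change was 0.63 in AGO1-/- cells (standard error 0.18, adjusted p = 0.0391), or -0.39 when scaled to the other short RNAs, and -1.02 in AGO2-/- cells (standard error 0.18, adjusted p = 0.00242). The changes of -0.16 in AGO1/2 (adjusted p = 0.603) and -0.42 in AGO1/2/3-/- cells (adjusted p = 0.0694) were not called. Scaled to the other short RNAs both were called lower, at -0.92 (adjusted p = 8.11e-05) and -0.77 (adjusted p = 0.000472). RMRP was also called lower in AGO1/2/3-/- cells with total counts (-0.56), TMM over protein-coding genes (-0.50), no filter (-0.45) and at least 10 counts in every sample (-0.49), and without AGO1/2-/- replicate 1 the AGO1/2 change was 0.01. Compared directly, AGO2-/- cells had less RMRP than AGO1-/- cells, with a log2 fold change of -1.64 (adjusted p = 2.63e-05). The AGO1 call was lost without wild-type replicate 1 or 2 or any AGO1-/- replicate, at 0.53 to 0.68 (adjusted p 0.0612 to 0.123), with a fit of 6 samples (0.0824) and without the AGO2-/- samples (0.0678). The AGO1/2/3 change was called without wild-type replicate 1, AGO1/2-/- replicate 1 or 3 or AGO1/2/3-/- replicate 1, at -0.59 to -0.45 (adjusted p 0.0166 to 0.0361). From lowest to highest the order was AGO2, AGO1/2/3, AGO1/2, wild type and AGO1, and the first step (adjusted p = 0.0139) and the last were called. The mode of quantification named for AGO2-/- samples cannot be told apart from the genotype here. A further Ensembl identifier listed at a level similar to that of RMRP is not in GENCODE v44 and could not be named. Its values are not used, and whether it shares reads with RMRP was not tested.

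RPPH1 (ENSG00000277209) had 2561, 2817 and 2537 CPM in wild-type replicates 1, 2 and 3. It had 3391, 4080 and 5667 CPM in AGO1-/- cells and 4255, 3440 and 3485 in AGO2-/- cells. In AGO1/2-/- cells it had 3510, 3912 and 4333 CPM, and in AGO1/2/3-/- cells 2939, 2531 and 2343. The AGO1/2/3-/- samples overlapped wild type, and those of the other lines lay above it. Against wild type, the log2 fold change was 0.73 in AGO1 (standard error 0.16, adjusted p = 0.0111), 0.50 in AGO2 (adjusted p = 0.043), 0.57 in AGO1/2 (adjusted p = 0.0243) and -0.02 in AGO1/2/3-/- cells (adjusted p = 0.943), and when scaled to the other short RNAs it was -0.34 in the AGO1 and -0.20 in the AGO1/2 line. The AGO2 call was lost on leaving out 1 of 11 samples, namely any wild-type, AGO2-/- or AGO1/2/3-/- replicate and AGO1/2-/- replicates 1 and 2, at 0.36 to 0.54 (adjusted p 0.051 to 0.148). With the 2-fold threshold counted, it was lost in 18 of 26 alternatives, among them total counts (adjusted p = 0.0965), TMM over protein-coding genes (0.0694), scaling to the other short RNAs (0.126), at least 10 counts in every sample (0.0642), a fit of 6 samples (0.054) and the replicate block (0.0595). The AGO1 call was lost with a fit of 6 samples (adjusted p = 0.0919). The AGO1/2 call was lost without wild-type replicate 1 or 3 or AGO1/2-/- replicate 2 or 3, at 0.49 to 0.56 (adjusted p 0.0641 to 0.0829). The AGO1/2/3 change turned just above 0 without wild-type replicate 2 or AGO1/2/3-/- replicate 3, at 0.00 to 0.01. It was -0.38 when scaled to the other short RNAs (adjusted p = 0.0639) and -0.16 with total counts (adjusted p = 0.438), neither of them called. The order was AGO1/2/3, wild type, AGO2, AGO1/2 and AGO1, and only the step from wild type to AGO2 was called.

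RMRP and RPPH1 are alike in fold and share proteins, and their balance was also read within libraries, after their values had been seen. The ratio of RMRP to RPPH1 counts was 1.91, 2.01 and 2.66 in wild-type replicates 1 to 3, 2.41, 2.18 and 1.69 in AGO1-/- cells and 0.711, 0.781 and 0.810 in AGO2-/- cells. It was 1.05, 1.40 and 1.46 in AGO1/2-/- cells and 1.74, 1.57 and 1.62 in AGO1/2/3-/- cells. Wild type and AGO1-/- cells overlapped, and the other lines lay below wild type, with AGO2-/- samples lowest. These are ratios of counts, not of levels per length. They use the RMRP entry alone, and whether the unnamed identifier at a similar level shares its reads was not tested. Mode of quantification and genotype cannot be told apart in the AGO2-/- ratios either. The mean log2 ratio differed from wild type by -0.06, -1.499, -0.75 and -0.40 for the edited lines in line order, with exact two-sided permutation p of 0.8, 0.1, 0.1 and 0.1.

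**Figure D3:**
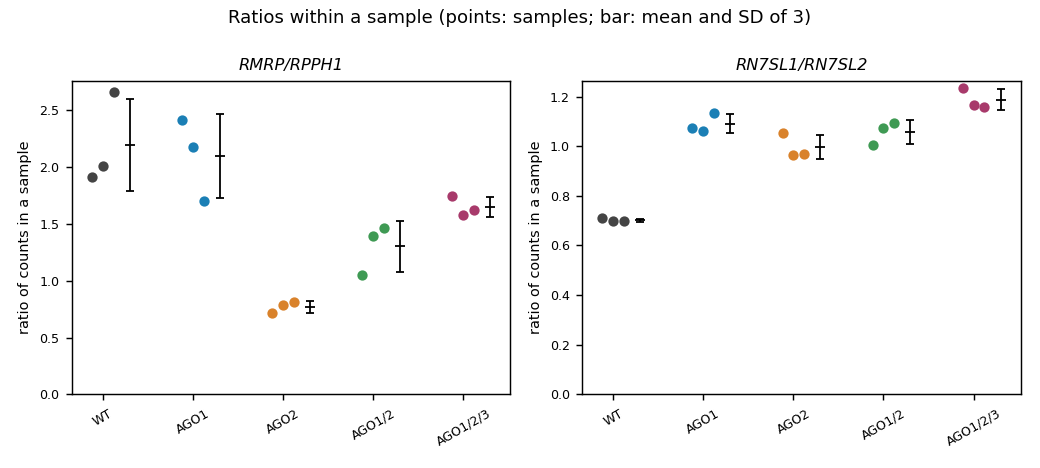
The ratio of RMRP to RPPH1 counts and of RN7SL1 to RN7SL2 counts within each sample (vertical axes, starting at 0), with a point per sample and a bar for the mean and SD of 3 per line. RMRP/RPPH1 is lowest in AGO2-/- samples, 0.711 to 0.810, and RN7SL1/RN7SL2 is 0.698 to 0.709 in wild type and at least 0.964 in every knockout sample.

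TERC (ENSG00000270141) was the least abundant of the 8 RNAs, with 38.4, 38.2 and 50.1 CPM in wild-type replicates 1, 2 and 3. It had 38.5, 42.3 and 55.3 CPM in AGO1-/- cells and 41.3, 35.5 and 35.3 in AGO2-/- cells. Levels in AGO1/2-/- cells were 29.8, 35.9 and 35.3 CPM, and in AGO1/2/3-/- cells 26.2, 27.7 and 23.9. The AGO1/2 and AGO1/2/3-/- samples lay below all wild-type samples. In AGO1/2/3-/- cells TERC fell by 0.70 on the log2 scale (standard error 0.14, adjusted p = 0.00114), a call kept in 26 of 27 alternatives and lost with a 2-fold threshold. The changes of 0.10 in AGO1 (adjusted p = 0.731), -0.18 in AGO2 (adjusted p = 0.398) and -0.33 in AGO1/2-/- cells (adjusted p = 0.143) were not called. The AGO1 change was -0.04 without AGO1-/- replicate 3 and -0.93 (adjusted p = 9.3e-05) when scaled to the other short RNAs, and the AGO1/2 change was called with total counts (-0.41, adjusted p = 0.0488) and with that scaling (-1.08, adjusted p = 5.84e-05). From lowest to highest the order was AGO1/2/3, AGO1/2, AGO2, wild type and AGO1, and no step between neighbours was called.

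A further entry at the TERC locus, named Telomerase-vert and overlapping TERC on the same strand, took more counts than TERC itself in every sample. It had 47.8, 58.4 and 52.4 CPM in wild-type cells, 92.9, 76.3 and 77.7 in AGO2-/- cells and 40.9, 33.0 and 35.5 in AGO1/2/3-/- cells. Its AGO2-/- samples lay above wild type and its AGO1/2/3-/- samples below it. With its counts added, the log2 fold change of TERC in AGO1/2/3 knockout cells was -0.61 (adjusted p = 0.00351), and in AGO2-/- cells its direction turned from -0.18 to 0.33 (adjusted p = 0.115). How reads were split between both entries is uncertain.

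SNORD3A (ENSG00000263934) had 1608, 2038 and 2038 CPM in wild-type replicates 1, 2 and 3. It had 10529, 13160 and 18998 CPM in AGO1-/- cells and 11951, 9348 and 10626 in AGO2-/- cells. In AGO1/2-/- cells it had 9253, 9434 and 11108 CPM, and in AGO1/2/3-/- cells 5787, 5588 and 5210. No knockout sample came near the wild-type samples, and the AGO1/2/3-/- samples lay below those of every other knockout line. The log2 fold change was 2.91 in AGO1 (standard error 0.19, adjusted p = 2.19e-07), 2.49 in AGO2 (adjusted p = 1.17e-06), 2.39 in AGO1/2 (adjusted p = 6.73e-07) and 1.54 in AGO1/2/3-/- cells (standard error 0.18, adjusted p = 6.68e-06). These calls were kept in every alternative run for them, and scaled to the other short RNAs the changes were 1.86, 2.41, 1.64 and 1.21. In the order wild type, AGO1/2/3, AGO1/2, AGO2 and AGO1, the steps from wild type to AGO1/2/3 and from there to AGO1/2 (log2 difference 0.85, adjusted p = 0.00286) were called. The later steps, to AGO2 (adjusted p = 0.727) and to AGO1 (adjusted p = 0.107), were not.

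Other U3 entries changed the picture little. SNORD3A held 97.3% to 99.3% of the counts of the 60 U3 entries listed, and the log2 fold change of their sum was 2.89, 2.47, 2.37 and 1.53 in line order. SNORD3C, which differs from SNORD3A by the single base G108A, had 15.4, 24.1 and 24.3 CPM in wild-type cells and 40.9, 38.4 and 38.1 in AGO1/2/3-/- cells. Its log2 fold changes were 2.04, 1.63, 1.66 and 0.88 in the same order of lines, and whether its reads came from SNORD3A is uncertain.

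SCARNA2 (ENSG00000278249) had 167, 206 and 192 CPM in wild-type replicates 1, 2 and 3. It had 178, 259 and 313 CPM in AGO1-/- cells and 245, 214 and 217 in AGO2-/- cells. Levels in AGO1/2-/- cells were 126, 174 and 203 CPM, and in AGO1/2/3-/- cells 122.5, 99.7 and 108. The AGO1/2/3-/- samples lay below all wild-type samples and the AGO2-/- samples above them, while the other lines overlapped wild type. In AGO1/2/3-/- cells SCARNA2 fell by 0.78 on the log2 scale (standard error 0.19, adjusted p = 0.00405), and the call was kept in 26 of 27 alternatives and lost with a 2-fold threshold. The changes of 0.41 in AGO1 (adjusted p = 0.212), 0.26 in AGO2 (adjusted p = 0.341) and -0.17 in AGO1/2-/- cells (adjusted p = 0.614) were not called, but scaled to the other short RNAs those in AGO1 (-0.65, adjusted p = 0.00216) and AGO1/2 (-0.94, adjusted p = 0.000238) were called lower. On leaving out a sample, SCARNA2 ranged from 0.23 to 0.60 in AGO1-/-, 0.16 to 0.31 in AGO2-/- and -0.33 to -0.02 in AGO1/2-/- cells. In the order AGO1/2/3, AGO1/2, wild type, AGO2 and AGO1, only the first step was called (adjusted p = 0.0311).

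Counted by overlap alone, 5 of the 8 RNAs had all AGO1-/- samples above all wild-type samples, as had 10.2% of all genes tested. In AGO2-/- cells 5 lay above and 1 below, beside 18.5% and 18.6% of all genes, and in AGO1/2-/- cells 5 lay above and 1 below, beside 15.5% and 14.3%. In AGO1/2/3-/- cells 3 lay above and 2 below, beside 26.3% and 23.8%. The members that came out opposite to each other in the AGO1/2/3 line were SNORD3A, RN7SL1 and RN7SK, which were higher, and TERC and SCARNA2, which were lower, with RN7SK at 0.08 when scaled to the other short RNAs. Among the members made by RNA polymerase II, SNORD3A thus went the other way from TERC and SCARNA2 in that line.

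Levels of different genes can be compared only per length, and here only roughly, since the recovery of RNAs of different short lengths was not measured. TERC is given without the further entry at its locus, and the split between RN7SL1 and RN7SL2 is uncertain. Per kilobase of the RefSeq RNA, wild-type cells had 57573 ± 7683 CPM of RN7SL2 (SD, n = 3), 40411 ± 5082 of RN7SL1 and 38942 ± 5171 of RN7SK. RMRP followed at 21335 ± 3449 CPM per kilobase, SNORD3A at 8732 ± 1145 and RPPH1 at 7737 ± 454, and SCARNA2 at 449 ± 47.4 and TERC at 93.7 ± 15.2 were far lower. RN7SL1 and RN7SK lay within their spread, as did SNORD3A and RPPH1. In AGO1-/- cells SNORD3A reached 65571 ± 19976 CPM per kilobase, within the spread of RN7SL2 at 73839 ± 8148 and RN7SL1 at 80611 ± 10779. In AGO1/2/3-/- cells SNORD3A had 25478 ± 1350 CPM per kilobase and RMRP 15913 ± 2668.

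Genes whose pattern was most like that of a member were ranked by the root mean square (RMS) difference between log2 CPM values, each centred over the 15 samples. SNORD3A was nearest to SNORD3C at an RMS difference of 0.35, RNU2-1 at 0.45 and RNU5E-1 at 0.50, beside a standard deviation of SNORD3A itself of 1.08. RN7SL1 was nearest to SNORA54 (0.14, its own deviation 0.42), followed by ANKRD36BP2 (0.21) and GPR158 (0.22). RMRP was nearest to SNORA79B (0.17, its own deviation 0.59), then LERFS and SNORA17B (both 0.22). RPPH1 came nearest to the mitochondrial messages MT-CO3 (0.15) and MT-ATP6 (0.15) and to SNORA80B (0.17), beside its own 0.36. TERC was nearest to PCMTD2, RPL15 and EIF3L (each 0.11, its own deviation 0.33). SCARNA2 was nearest to RPS28P7 (0.14), RPS29 (0.15) and RPS16 (0.17), beside its own 0.48. For RN7SK, SCARNA13 (0.14) and LINC01180 (0.15) came closest, beside its own 0.24. For RN7SL2, whose own deviation was 0.19, ASB13 (0.11), PGAP4 (0.12) and ZNF442 (0.12) came closest.

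The 8 RNAs together took 4.95%, 5.94% and 5.88% of all counts in wild-type replicates 1 to 3, a mean of 5.59% ± 0.558 (SD, n = 3). Their share was 7.71%, 8.78% and 10.2% in AGO1 and 8.03%, 6.68% and 7.35% in AGO2-/- cells. It was 7.35%, 8.59% and 9.05% in AGO1/2 and 7.80%, 6.91% and 6.57% in AGO1/2/3-/- cells. All 12 knockout samples lay above the wild-type samples. The mean share rose by 3.30, 1.76, 2.74 and 1.498 percentage points for the edited lines in line order, each with a two-sided exact permutation p of 0.1. The widest 95% Wilson interval of a sample's share, which covers counting error only, spanned 0.0215 percentage points. Without RN7SL1 and RN7SL2 the differences were 1.80, 0.898, 1.24 and 0.400 percentage points. AGO1/2/3-/- replicate 3, at 2.63%, then lay below wild-type replicate 2, at 2.72%, while all samples of the other knockout lines stayed above wild type. SNORD3A alone took 0.175%, 0.219% and 0.209% of counts in wild-type samples and 1.08%, 1.30% and 1.87% in AGO1-/- samples.

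**Figure D4:**
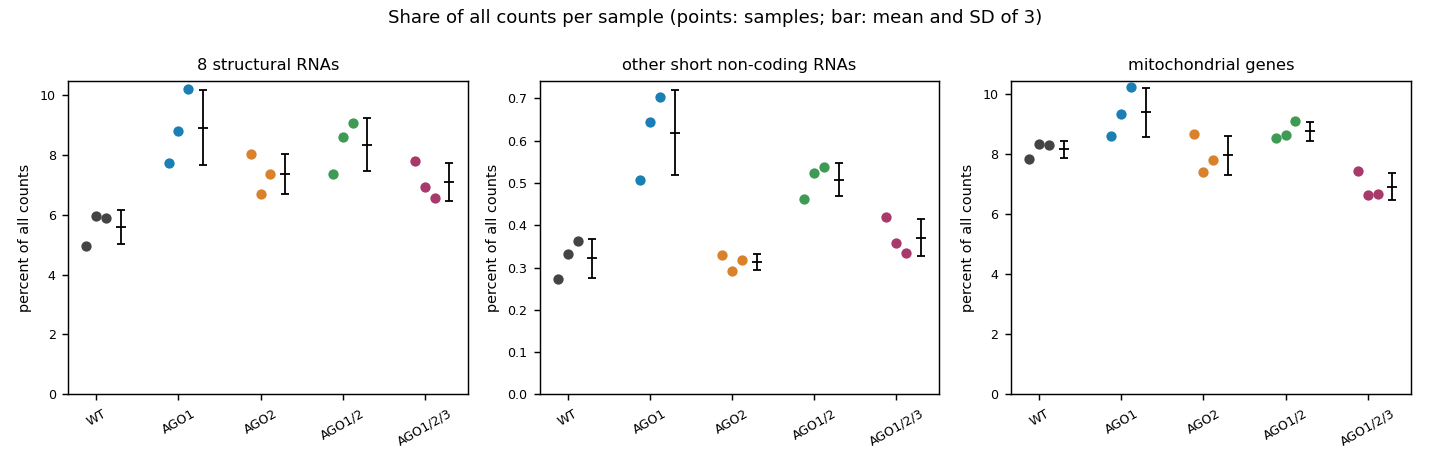
The share of all counts (percent, vertical axes, starting at 0) taken by the 8 structural RNAs, by the other short non-coding RNA genes and by mitochondrial genes, with a point per sample and a bar for the mean and SD of 3. The structural RNAs lie above wild type, at 4.95% to 5.94%, in all 12 knockout samples, and the other short RNAs reach their highest share, 0.703%, in AGO1-/- replicate 3.

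Recovery of short RNAs could differ between libraries, so the other short RNAs were read beside the members. The 4972 other short non-coding RNA genes listed took 0.272%, 0.331% and 0.363% of counts in wild-type replicates 1 to 3 and 0.507%, 0.645% and 0.703% in AGO1-/- cells. Shares were 0.329%, 0.291% and 0.318% in AGO2-/- cells, 0.463%, 0.523% and 0.537% in AGO1/2-/- cells, and 0.419%, 0.357% and 0.335% in AGO1/2/3-/- cells. The AGO1 and AGO1/2-/- samples lay above wild type, and the AGO2 and AGO1/2/3-/- samples overlapped it. In each knockout line the samples ranked alike by this share and by that of the 8 members, and in wild type replicate 1 was lowest by both. Mitochondrial genes took 7.83% to 8.34% of counts in wild-type samples and, in line order, 8.60% to 10.2%, 7.41% to 8.65%, 8.52% to 9.11% and 6.64% to 7.43%, and ribosomal RNA genes at most 0.0344%. By level, the other short RNAs were led by RNU1-1, RNU2-1 and RN7SL3, so values scaled to them carry the changes of those genes. RNU1-1 had 180 to 403 CPM in wild-type and 876 to 1362 in AGO1-/- samples. RN7SL3, a copy of 7SL, had 447 to 667 CPM in wild-type and 82.9 to 90.3 in AGO1/2/3-/- samples. The part of library recovery in the members' changes was not tested.

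By gene, 644 other short RNAs were tested. Calls higher numbered 107, 73, 87 and 79 in line order, and calls lower 3, 41, 27 and 77. As shares, 16.6%, 11.3%, 13.5% and 12.3% were called higher, beside 3.17%, 8.55%, 8.37% and 20.3% of all genes tested. Called lower were 0.466%, 6.37%, 4.19% and 12.0%, beside 5.5%, 10.8%, 8.35% and 19.8% of all genes. Those under 200 bases, 346 genes, gave 91, 43, 64 and 54 calls higher and 2, 30, 19 and 54 lower. Those of 200 bases or more, the length of the members, numbered 298 and gave 16, 30, 23 and 25 calls higher and 1, 11, 8 and 23 lower. The median log2 fold change was 0.42, 0.09, 0.22 and -0.02 for the shorter class and 0.05, -0.02, 0.10 and 0.00 for the longer class. All 8 members are longer than 200 bases. The longer class holds copies of members, such as RN7SL3 of 299 bases, and how reads split between copies is uncertain. Of the longer class, 17 averaged 10 CPM or more over all samples and had medians of 0.62, 0.14, 0.54 and 0.42, beside 0.52, 0.33, 0.44 and 0.10 for the members. This cut admits genes through the lines where they are high, which can itself raise these medians, so no comparison with the members is drawn. Protein-coding genes with no transcript of 1000 bases or more, 457 tested, had medians of 0.02, 0.13, -0.01 and -0.28 in line order. Of the 644 other short RNAs, 41 averaged 10 CPM or more, of which 27, 11, 20 and 19 were called higher in line order and 9, 2 and 8 lower in the last 3 lines. Since the mean covers all lines, a gene such as RNU12, at most 1.85 CPM in wild type and at least 13.8 in knockout samples, can pass. The cut thus favours genes called higher, and no conclusion is drawn from these counts.

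Single short RNAs differed in AGO2-/- cells. Among the most abundant, RNU1-1 had 180, 218 and 403 CPM in wild-type cells and 321, 256 and 286 in AGO2-/- cells, where the groups overlapped and SNORD3A was higher by a log2 fold change of 2.49. In the other lines it had 876 to 1362 CPM in AGO1-/-, 623 to 1012 in AGO1/2-/- and 568 to 672 in AGO1/2/3-/- samples, all above wild type, as SNORD3A was. SNORA73A had 292, 480 and 414 CPM in wild-type cells and 150, 103 and 121 in AGO2-/- cells, a log2 fold change of -1.67 (adjusted p = 0.000492), and its samples in the other lines overlapped wild type. Other abundant short RNAs lay above wild type in AGO2-/- cells. RNU2-1 went from 137 to 203 CPM in wild-type samples to 383 to 426 in AGO2-/- samples. For RNU2-2P these levels were 26.8 to 50.0 and 157 to 209 CPM, and for SCARNA10 39.3 to 48.1 and 125 to 178. RNU12, a spliceosomal RNA, had 0.815, 1.85 and 1.42 CPM in wild-type cells and 13.8 to 73.8 in the knockout samples, none of which overlapped wild type. RNU1-1, SNORA73A and SNORA73B lie outside the rule for naming genes and were chosen after their values were seen.

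**Figure D5:**
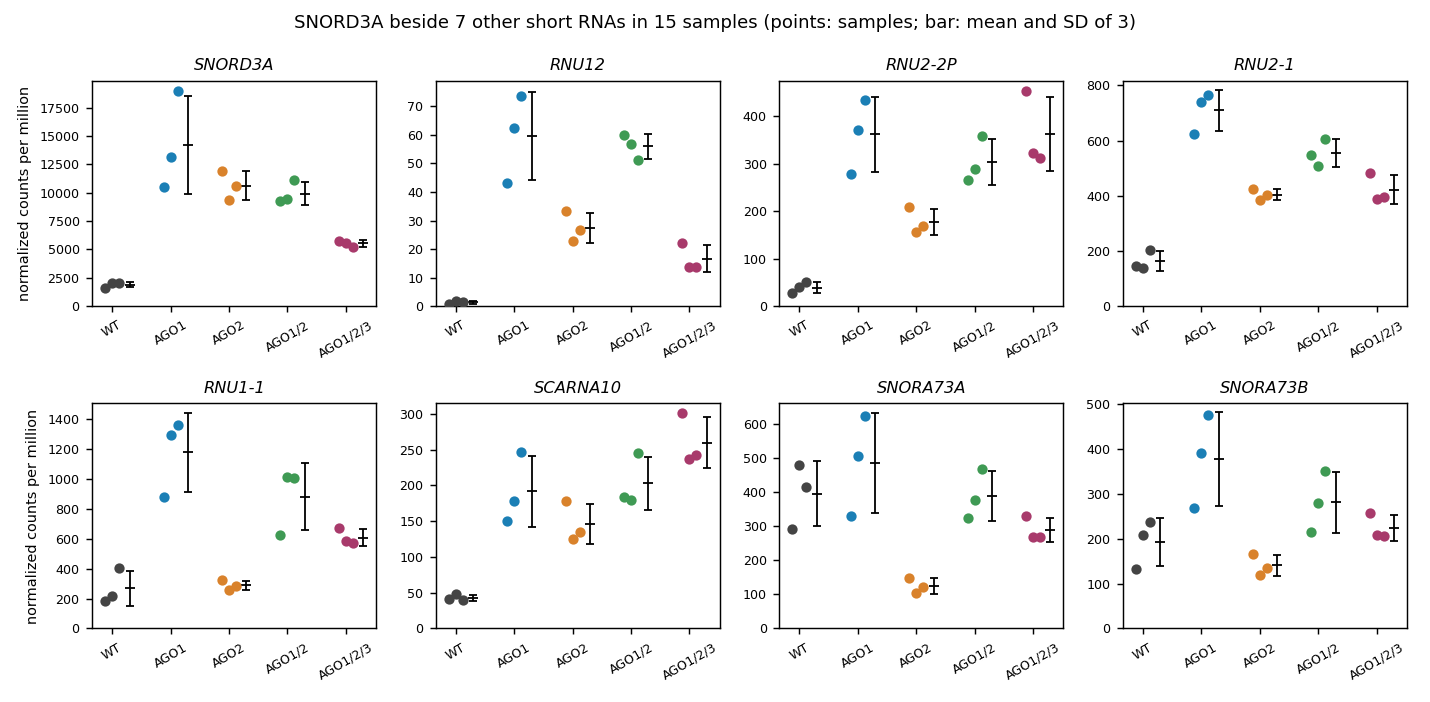
Normalized CPM (vertical axes, starting at 0) of SNORD3A and of 7 other short RNAs in wild type and the 4 knockout lines, with a point per sample and a bar for the mean and SD of 3. RNU12 is at most 1.85 in wild type and at least 13.8 in each knockout sample, while SNORA73A is below wild type in AGO2-/- cells.

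RNAs that share a class or a polymerase with the members were counted by list. Of all genes tested, 3.17%, 8.55%, 8.37% and 20.3% were called higher in line order, and 5.5%, 10.8%, 8.35% and 19.8% lower. Of 14 spliceosomal and U7 snRNAs tested, 12, 9, 11 and 9 were called higher in line order, and 1 was called lower in AGO1/2-/- and in AGO1/2/3-/- cells. Their medians were 1.90, 0.99, 1.65 and 0.90, and these were positive under every scaling run. RNU12 had the largest change in AGO1/2/3-/- cells at 3.61, followed by RNU2-2P at 3.22 and RNU4-2 at 1.48. Of 15 other scaRNAs tested, the class of SCARNA2, 8, 4, 7 and 9 were called higher in the same order of lines and 4, 1 and 2 lower in the last 3. Their medians were 0.70, 0.30, 0.72 and 0.67, or -0.34 in AGO1 and -0.03 in AGO1/2-/- cells when scaled to the other short RNAs. SCARNA10 at 2.61, SCARNA5 at 1.79 and SCARNA1 at 1.61 rose in AGO1/2/3-/- cells, where SCARNA2 fell. Of these, SCARNA1 had only 0.188 to 0.392 CPM in wild-type samples. Of 9 other RNA polymerase III RNAs tested, 2, 1, 3 and 3 were called higher in line order, with 1 lower in AGO2-/- and 3 lower in AGO1/2/3-/- cells. Medians of this list were 0.14, -0.20, 0.66 and 0.21, or -0.90, -0.28, -0.05 and -0.12 when scaled to the other short RNAs. Beside RN7SL3, RNU6ATAC at 2.45 and RNY3 at 1.75 changed most in AGO1/2/3-/- cells. Both were low in wild-type samples, at 0.669 to 1.69 and 1.43 to 3.05 CPM. Of 7 other snoRNAs tested, which include U3 copies, 5, 3, 2 and 2 were called higher in line order and 1 lower in AGO2-/- cells, with medians of 0.97, 1.05, 0.42 and 0.06, or -0.06, 0.92, -0.35 and -0.35 when scaled to the other short RNAs, and the last was also below 0 with total counts (-0.08) and with TMM over protein-coding genes (-0.01). Of these, SNORD118 was at 0 counts in all wild-type samples, so its log2 change of at least 4.19 in AGO1/2/3-/- cells is a lower bound against 3 counts over the group.

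Protein partners of the members were counted by list too, beside 8.68%, 19.3%, 16.7% and 40.1% of all genes called in either direction in line order. Of 6 signal recognition particle proteins, which bind 7SL RNA, SRP9 (0.45) and SRP54 (0.34) were called higher in AGO1/2/3-/- cells, and the list's median was 0.08, or -0.06 with total counts alone and -0.27 when scaled to the other short RNAs. In the other lines, where RN7SL1 was higher too, edgeR called 0 of the 6, beside 0, 2 and 1 at an unadjusted p under 0.05 and 0, 2 and 0 by DESeq2 in line order. Of 7 proteins of the 7SK particle and P-TEFb, CCNT2 (0.44) and LARP7 (0.41) were called higher and CCNT1 (-0.32) lower in AGO1/2/3-/- cells, with a median of -0.05, and 1 was called higher in AGO2-/- and in AGO1/2-/- cells. Of 11 RNase P and RNase MRP proteins, 4 were called higher in AGO2-/- cells, with a median of 0.42, where RMRP fell by 1.02 on the log2 scale and RPPH1 rose. In AGO1/2/3-/- cells 2 of the 11 were called higher and 4 lower, with a median of -0.13, and RPP25L (-0.70), RPP25 (-0.64) and RPP21 (-0.59) changed most. The part of these proteins in the levels of the RNAs was not tested.

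For partners of TERC, SNORD3A and SCARNA2, the list medians in AGO1/2/3-/- cells were negative under every scaling run. Of 8 telomerase and H/ACA particle proteins, which bind TERC or help to make its particle, 6 were called lower, with a median of -0.53. TERT (-3.37), NHP2 (-0.77) and NAF1 (-0.62) changed most, in the line where TERC was lowest. Of 9 U3 and C/D particle proteins, 5 were called lower, with a median of -0.59, and FBL (-1.28), SNU13 (-0.81) and RRP9 (-0.71) changed most, while SNORD3A was higher. Of 6 Cajal body proteins, COIL (0.58) was called higher and SMN1 (-0.50) and NOLC1 (-0.42) lower, with a median of -0.33. In AGO2-/- cells 3 of the 8, 3 of the 9 and 2 of the 6 were called higher, with medians of 0.36, 0.40 and 0.43. In AGO1-/- and in AGO1/2-/- cells 1 of the 8 was called lower, and edgeR called 0 of the 9, 0 of the 6 and 0 of the 11 RNase P and RNase MRP proteins in either. At an unadjusted p under 0.05 those counts were 1, 0 and 2 in AGO1-/- cells and 1, 1 and 2 in AGO1/2-/- cells, and by DESeq2 all were 0.

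Of 13 RNA polymerase III subunits, 4 were called higher in AGO2-/- cells, 3 lower in AGO1/2-/- cells, and 2 higher and 5 lower in AGO1/2/3-/- cells, where the median was -0.10. POLR3G (-1.54), POLR1C (-1.26) and POLR3E (-1.11) changed most, in a line where RN7SL1 and RN7SK were higher. Of 18 factors that act with this polymerase, 3 were called higher and 7 lower in AGO1/2/3-/- cells, with a median of -0.01, and 4 were called higher in AGO2-/- cells and 2 higher and 2 lower in AGO1/2-/- cells. SNAPC4 (-1.16) and SNAPC3 (1.06), subunits of the complex that binds snRNA-type promoters such as that of RN7SK, moved in opposite directions, and MAF1 (-1.002), a repressor of the polymerase, was lower. In AGO1-/- cells, where 4 members were called higher, edgeR called 0 of the 13 subunits, with 0 at an unadjusted p under 0.05 and 0 by DESeq2, and 1 of the 18 factors lower.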

How the data were processed

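RNA from 15 HCT116 samples, 3 for each of 5 lines, was sequenced by the authors. Per the labels, STAR 2.5.3a and Salmon 0.11.0 were used on hg38. The deposited values are estimated counts (expected counts) per Ensembl gene, summed from transcripts by the authors and not scaled for depth. They were rounded to whole numbers here. No pair among 105 pairs of samples held identical values. Genes were filtered with edgeR's filterByExpr, normalized by TMM and fitted together, 1 coefficient per line (edgeR 4.0.16, R 4.3.3). Adjusted p is Benjamini-Hochberg over 22842 genes, and the common biological coefficient of variation was 0.152. Log2 values of single samples used a prior count of 2. The procedure was tested on simulated data, where recovery missed the bound written first and wider bounds were set after that run. GENCODE v44 gave names and types for 57167 of 57875 genes, RefSeq gave positions, and sequences were read from GRCh38 (hg38). Tables and figures used Python 3.11.15, numpy 2.4.6, pandas 2.3.3 and matplotlib 3.10.9.

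The members and gene lists were chosen with earlier results of these data known. Genes named are the 8 members, from each list at most 3 genes called in AGO1/2/3-/- cells with the largest absolute log2 fold change, and at most 3 of the genes most like each member. Any other gene was picked once its values had been seen.

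Alternatives tried were DESeq2's size factors, total counts, TMM over protein-coding genes or scaling to other short RNAs, DESeq2's Wald test (DESeq2 1.42.0), a fit without the filter, a minimum of 10 counts in all samples, a fit of 6 samples per comparison, the replicate number as a block, RN7SL1 and RN7SL2 summed, a 2-fold threshold, each sample left out in turn, and other members or denominators for the summed share. Sums with same-locus entries, sums over all copies, a fit without AGO2-/- samples and ratios within a library were added after seeing the data. Samples taken for other assays of the series were not used.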

Additional observations from a re-analysis of the deposited data

How the results depend on the processing

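Of the alternative values for single members, 755 kept their direction and side of the threshold, 76 lost the call, 21 gained it and 16 turned direction, 6 of them called before. Of the 16, 11 came when levels were scaled to the other short non-coding RNAs. In the AGO1 knockout, the log2 fold change of RN7SL1 was then -0.0309, that of RN7SL2 -0.66, RN7SK -0.79, RMRP -0.39, RPPH1 -0.34, TERC -0.93 and SCARNA2 -0.65, with 1 member called higher and 5 lower, and in AGO1/2-/- cells RN7SL2 was at -0.37, RN7SK at -0.26 and RPPH1 at -0.20, with 1 called higher and 4 lower, and in AGO1/2/3-/- cells RN7SL2 was at -0.12. Over all genes that scaling called 102 higher and 19161 lower in AGO1-/- and 258 higher and 14256 lower in AGO1/2-/- cells, of 22842 tested. It shifts all genes of a sample alike, and these counts follow from that shift, with all-gene medians of -1.03 and -0.74. Why the other short RNAs took a larger share of counts in both lines was not tested. In AGO1/2-/- cells 3 members were called higher with total counts (1 lower), with at least 10 counts in every sample and with only 6 samples, where 2 were called higher in AGO1-/- cells. A 2-fold threshold left 1 member called higher in each line and 0 lower in AGO1/2/3-/- cells, where the calls of TERC and SCARNA2 were lost. TERC in AGO2-/- cells was at 0.33 with same-locus entries summed, an alternative chosen after seeing the data. Leaving out a sample gave -0.0436 to 0.24 for TERC in AGO1-/-, -0.34 to 0.0137 for RMRP in AGO1/2-/- and -0.13 to 0.00934 for RPPH1 in AGO1/2/3-/- cells, and 2 to 5 members called higher in AGO1/2-/- cells. The summed share differed by 2.65 to 3.89, 1.42 to 2.10, 2.38 to 3.23 and 1.15 to 1.76 percentage points on leaving out a sample in the lines without AGO1, AGO2, both or all 3 in turn, and by 1.80, 0.898, 1.24 and 0.400 without RN7SL1 and RN7SL2. Replicate numbers do not pair samples across lines, since only 5 of 30 same-number pairs had a correlation over 0.1 (mean -0.00669), and a replicate block gave 4, 2, 5 and 3 members higher, with RPPH1 in AGO2-/- cells at 0.50 (adjusted p = 0.0595). Over all genes, 6 samples gave 219, 528 and 927 higher and 439, 1340 and 1189 lower in the first 3 lines (725, 1952 and 1913, and 1257, 2456 and 1907, in the fit of all samples). The 2-fold threshold gave 279, 201, 564 and 1590 higher and 497, 1131, 756 and 2050 lower (4644 and 4522 in AGO1/2/3-/- cells without it). Total counts gave 1985 lower in AGO1 and 733 higher in AGO2-/- cells, and the share of calls that were higher was 20.5%, 16.9%, 34.9% and 36.7% in the 4 lines, beside 36.6%, 44.3%, 50.1% and 50.7% with TMM. Alternatives chosen after seeing the data kept SNORD3A higher in every line fitted. At this depth counting error was small for all members, and 3 replicates and a single line per genotype limit the comparisons.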
